A study of Mus musculus with 8 samples.

Results

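The comparison described here is the late step of tunicamycin treatment in 3T3-L1 adipocytes, from 8 h to 12 h. 3T3-L1 is a mouse fibroblast line that becomes fat cells in culture, and tunicamycin is an antibiotic that stops N-linked glycosylation of proteins at its start. The rule took the tunicamycin-exposed arrays of these times from the labels, 1 array at 8 h and 2 arrays at 12 h, which is 3 of the 8 arrays of the series. The other arrays were tunicamycin at 4 h (1 array) and untreated control cultures at 4 h (1 array), 8 h (2 arrays) and 12 h (1 array). The labels name no other agent or genotype, and they call the replicates biological. No dose of tunicamycin is stated in the labels used here. The 8 h tunicamycin state rests on a single array, so every difference below assumes that this array varied like the replicated groups. Values are normalized Affymetrix intensities, and a log2 difference is 12 h minus 8 h unless another comparison is named.

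Poorly folded glycoproteins in the endoplasmic reticulum (ER) activate the membrane sensors PERK, IRE1 and ATF6, which together run the unfolded protein response. PERK slows protein synthesis and raises the transcription factor ATF4, which drives Ddit3 (CHOP), amino acid supply genes and tRNA synthetases. IRE1 splices the Xbp1 mRNA, and XBP1 and ATF6 drive chaperones, ER-associated degradation and the secretory apparatus. Fat cells secrete adipokines and rely on this machinery to fold them.

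The promoters of 4 genes of the response are shown because their courses after 8 h are set against each other below. Each is the RefSeq window of 300 bases (250 before the start and 50 after it) on build GRCm38.p6, plus strand, with a textbook motif in capitals. Hspa5 (chr2:34771840-34772139) and Pdia6 (chr12:17266339-17266638) hold the ER stress response element (ERSE, CCAAT and CCACG with 9 bases of any kind between them), read by ATF6. Kdelr3 (chr15:79516158-79516457) holds the core of the unfolded protein response element (TGACGTGG, here on the minus strand), read by XBP1. Chac1 (chr2:119350992-119351291) holds the C/EBP-ATF response element (CARE, TGATGNAA, here on the minus strand), read by ATF4.
Hspa5: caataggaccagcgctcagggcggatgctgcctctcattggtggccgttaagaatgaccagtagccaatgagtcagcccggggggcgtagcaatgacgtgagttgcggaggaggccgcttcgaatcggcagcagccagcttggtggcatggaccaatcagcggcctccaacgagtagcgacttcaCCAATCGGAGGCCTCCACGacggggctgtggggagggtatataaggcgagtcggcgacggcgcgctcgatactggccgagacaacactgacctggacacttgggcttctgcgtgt
Pdia6: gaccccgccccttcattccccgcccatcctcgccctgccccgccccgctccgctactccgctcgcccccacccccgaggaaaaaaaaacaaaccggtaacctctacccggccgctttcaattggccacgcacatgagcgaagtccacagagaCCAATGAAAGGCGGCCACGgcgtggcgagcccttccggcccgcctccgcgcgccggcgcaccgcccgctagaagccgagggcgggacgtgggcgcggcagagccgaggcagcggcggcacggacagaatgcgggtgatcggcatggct
Kdelr3: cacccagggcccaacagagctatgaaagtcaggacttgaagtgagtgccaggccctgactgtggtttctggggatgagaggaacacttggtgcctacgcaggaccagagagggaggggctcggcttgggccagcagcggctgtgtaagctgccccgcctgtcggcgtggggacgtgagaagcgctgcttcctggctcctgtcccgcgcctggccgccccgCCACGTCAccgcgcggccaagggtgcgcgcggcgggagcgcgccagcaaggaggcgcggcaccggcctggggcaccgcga
Chac1: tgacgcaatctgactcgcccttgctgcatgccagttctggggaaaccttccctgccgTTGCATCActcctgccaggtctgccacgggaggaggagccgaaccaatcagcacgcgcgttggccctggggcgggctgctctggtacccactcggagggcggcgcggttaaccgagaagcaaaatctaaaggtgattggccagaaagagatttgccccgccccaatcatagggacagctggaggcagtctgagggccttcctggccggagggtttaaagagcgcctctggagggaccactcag
Both strands were searched, and the motifs were searched as letters only, so a match is a description and no bound site. The ERSE letters occurred in 0.119% of the 32851 promoters of the table and in 8 of 41 promoters of the tested ER chaperone genes (19.5%). The response element core occurred in 0.676% of all promoters and in 6 of 45 promoters of ER translocation and ER-Golgi transport genes (13.3%). The CARE letters occurred in 3.97% of all promoters, in 6 of 26 promoters of the ATF4 and CHOP list (23.1%) and in 5 of 12 promoters of cytosolic tRNA synthetases (41.7%). In the 8 stress lists described below 10 tested genes held the ERSE letters. Their log2 differences ran from -0.46 for Syvn1 to 0.57 for Pdia6, 6 above 0 and 4 below, none of them called. The response element core stood in 12 tested genes, from -0.57 for Vegfa to 1.23 for Kdelr3, 8 above 0 and 4 below. The CARE letters stood in 19, from -0.32 for Tars to 0.46 for Faf2, 8 above 0 and 11 below. None of these was called either, so genes with the same motif went both ways.

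Adipocyte markers were read beside the label, and none with a probe set was at 0 on all arrays. The same held for the fibroblast and macrophage lists, so this does not tell cell types apart. Summed over the 27 adipocyte markers with a probe set (25 of them tested), the intensity was 60324 on the 8 h tunicamycin array and 51093 and 50746 at 12 h, against 74982 and 73545 in the 8 h controls and 61743 in the 12 h control. Fibroblast and preadipocyte markers summed to 57508 at 8 h and 55690.3 and 50222 at 12 h with tunicamycin, and none of these markers was at 0 on any array. In such bulk samples fewer cells of a type and less RNA per cell cannot be told apart. Macrophage markers summed to only 263 to 523 over the 8 arrays. The ratio of the bacterial hybridisation controls BioC over BioB was 1.52 to 1.60 on the 3 arrays of 12 h and 3.50 to 3.94 on the other 5 arrays. That difference and the step in time cannot be told apart, in tunicamycin or in control. The 3′ over 5′ ratio of beta-actin was 1.68 on the 8 h tunicamycin array and 1.71 and 1.67 at 12 h, and that of pyruvate carboxylase was 19.8 against 12.6 and 6.74. On the 4 h tunicamycin array these ratios were 2.81 and 43.5, the highest of the 8 arrays. The 4 h tunicamycin values below rest on that array alone. The part of either ratio in the results was not tested.

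Few genes passed the test between 8 h and 12 h of tunicamycin. Of 10916 genes tested, the taurine transporter gene Slc6a6 rose, and the metalloreductase gene Steap4, the growth hormone receptor gene Ghr and the splicing regulator gene Mbnl1 fell, at a limma adjusted p under 0.05 (0.00916% of genes higher and 0.0275% lower). At an unadjusted p under 0.05, 779 genes were higher (7.14%) and 935 lower (8.57%). For 7764 genes (71.1%) the 95% interval of the difference lay within a factor of 2 in either direction, the range called less than 2-fold below. The median difference over all tested genes was -0.00235, and the median interval reached 0.45 on either side. The same step in control cultures gave 0 calls in limma (0%), with 524 genes higher (4.8%) and 617 lower (5.65%) at an unadjusted p under 0.05. The difference between both time changes also gave 0 calls (0%), with 649 genes higher (5.95%) and 700 lower (6.41%) at an unadjusted p under 0.05 and a smallest adjusted p of 0.229. No gene was therefore shown to change differently in time with and without tunicamycin.

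The 8 lists of stress and secretory genes were higher than control in part at both times, 141 of 237 tested genes in limma at 8 h (59.5%, background 9.42%) and 149 at 12 h (62.9%, background 10.1%), and no gene of them was called between these times. Of their 251 genes, 244 had a probe set and 237 were tested, and 7 lay below the filter on low values. The calls numbered 0 at an adjusted p under 0.05 in limma, against 0.0366% of all genes, and the smallest adjusted p was 0.0603 for Kdelr3. At an unadjusted p under 0.05, 42 were higher (17.7%, background 7.14%) and 16 lower (6.75%, background 8.57%). For 219 of them (92.4%, background 71.1%) the change was less than 2-fold by its interval. Intervals were narrower for these genes, with a median reach of 0.341 against 0.455 over all genes, and their median level was higher, 9.48 against 7.48 on the log2 scale. Their median difference was 0.074, and for 122 of 237 (51.5%) both 12 h arrays lay above the 8 h array, against 37.8% of all genes.

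**Figure D1:**
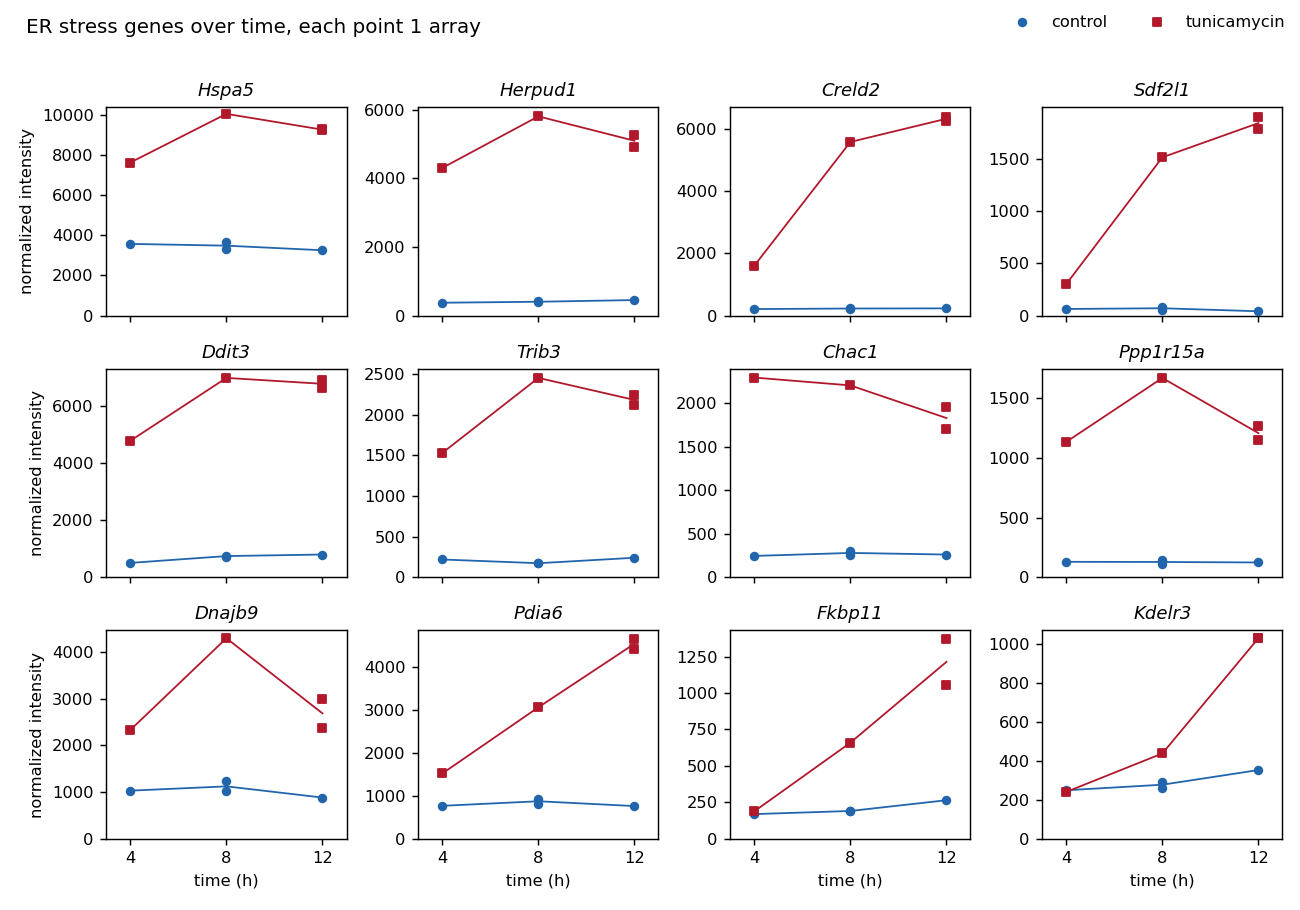
Normalized intensity (vertical axes, from 0, each gene on its own scale) of 12 stress genes at 4 h, 8 h and 12 h (horizontal axes). Points are single arrays, squares tunicamycin and circles control, and lines join the means of each time. Creld2 read 1603 at 4 h, 5581 at 8 h, and 6395 and 6261 at 12 h with tunicamycin, Dnajb9 was lower on both 12 h arrays than at 8 h, and Kdelr3 was higher on both.

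Atf4 and Ddit3, transcription factor genes of the PERK arm, stood near their 8 h level on their brightest probe sets. Atf4, the factor made when PERK slows translation, read 3434 at 4 h, 4232 at 8 h, and 4073 and 3881 at 12 h with tunicamycin, against 1114 to 1577 on the 4 control arrays. Ddit3, which encodes the pro-apoptotic factor CHOP, read 4781 at 4 h, 6986 at 8 h, and 6929 and 6627 at 12 h, against 501 to 794 in control. For both genes the 12 h arrays lay just below the 8 h array and far above every control. The difference was -0.090 (95% interval -0.38 to 0.20, limma adjusted p = 0.775) for Atf4 and -0.044 (95% interval -0.30 to 0.22, limma adjusted p = 0.888) for Ddit3. A second probe set gave -0.56 for Atf4 and 0.087 for Ddit3, so the size for Atf4 depends on the probe set. Over the 20 sensors and transcription factors tested, the median difference was -0.15, with -0.036 in control. Of these 18 were within 2-fold by their interval (71.1% of all genes), with a median reach of 0.408 against 0.455 over all genes.

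Of 24 tested genes of the ATF4 and CHOP response 17 had a difference below 0 and 7 above it. For 15 of them (62.5%) both 12 h arrays lay below the 8 h array, against 36.5% of all genes. Trib3, a pseudokinase that restrains AKT signalling, read 1529 at 4 h, 2452 at 8 h, and 2118 and 2244 at 12 h, against 172 to 239 in control. Chac1, an enzyme that degrades glutathione, read 2294 at 4 h, 2204 at 8 h, and 1959 and 1698 at 12 h, against 244 to 305. Atf3, a stress-induced repressor, read 252 at 4 h, 443 at 8 h, and 371 and 358 at 12 h, against 34.2 to 76.3. The control step was 0.47 for Trib3, -0.092 for Chac1 and -0.72 for Atf3. The difference between the time changes was -0.64, -0.18 and 0.45, none of them called, so against control Atf3 did not fall. With tunicamycin both 12 h arrays lay below the 8 h array in all 3 genes. The differences were -0.17 (95% interval -0.48 to 0.14) for Trib3, -0.27 (95% interval -0.65 to 0.10) for Chac1 and -0.28 (95% interval -0.74 to 0.18) for Atf3, with limma adjusted p of 0.579, 0.461 and 0.543. In this list 0 were called, 0 were higher and 5 lower at an unadjusted p under 0.05 (7.14% and 8.57% of all genes), and the median was -0.11.

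The lower genes of that list included both regulatory subunits that restart translation by dephosphorylating eIF2 alpha. Ppp1r15a (GADD34), the inducible subunit, read 1134 at 4 h, 1669.8 at 8 h, and 1264 and 1151 at 12 h, against 109 to 146 in control. Ppp1r15b, the constitutive one, read 1006 at 4 h, 1049 at 8 h, and 781 and 716 at 12 h, against 485 to 657. Both peaked at 8 h among the tunicamycin arrays, and the 12 h values stayed above every control. The differences were -0.47 (95% interval -0.91 to -0.024, limma adjusted p = 0.299) and -0.49 (95% interval -0.81 to -0.16, limma adjusted p = 0.175). Vegfa, an angiogenic growth factor gene that also answers to ATF4, read 662 at 4 h, 693 at 8 h, and 449 and 485 at 12 h, against 417 to 583 in control, so its 12 h arrays lay back within the control range. Its difference was -0.57 (95% interval -0.92 to -0.21, limma adjusted p = 0.152). Second probe sets gave smaller differences, -0.13 for Ppp1r15b and -0.10 for Vegfa. The translational repressor gene Eif4ebp1 and the C/EBP family gene Cebpg were the remaining members lower at an unadjusted p under 0.05.

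Chaperones of the ER lumen and their partners divided by gene. Hspa5 (BiP, GRP78), the main ER chaperone and a restraint on all sensors, read 7639 at 4 h, 10069 at 8 h, and 9240.5 and 9319 at 12 h, against 3259 to 3649.7 in control. Hsp90b1 (GRP94) read 4665 at 4 h, 7376 at 8 h, and 6324 and 7195 at 12 h, against 2633 to 2764. On the 12 h arrays both genes lay below their 8 h value, with differences of -0.12 (95% interval -0.36 to 0.12, limma adjusted p = 0.629) and -0.13 (95% interval -0.39 to 0.14, limma adjusted p = 0.634), and a second probe set of Hsp90b1 gave 0.52. Hspa5 was the probe set of rank 2 by brightness at 8 h and of ranks 7 and 6 at 12 h, and quantile normalization holds the brightest one at 10780, so a further rise could hardly show. On the deposited scale, less the median of all genes, the differences were 0.056 for Hspa5 and 0.00947 for Hsp90b1. Creld2, a secreted ER stress protein, read 1603 at 4 h, 5581 at 8 h, and 6395 and 6261 at 12 h, against 209 to 231 in control. Sdf2l1, a partner of the BiP cycle, read 301 at 4 h, 1512 at 8 h, and 1899.7 and 1779 at 12 h, against 41.0 to 82.2. Both genes were above every control from 4 h on, and both 12 h arrays lay above the 8 h array. The differences were small, 0.18 (95% interval -0.10 to 0.46, limma adjusted p = 0.513) for Creld2 and 0.28 (95% interval -0.21 to 0.77, limma adjusted p = 0.565) for Sdf2l1.

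The folding enzymes formed the list with the most members higher at 12 h by unadjusted p. Of 36 ER chaperones and folding enzymes tested, 0 were called, 14 were higher and 1 lower at an unadjusted p under 0.05 (7.14% and 8.57% of all genes). For 27 of the 36 both 12 h arrays lay above the 8 h array (37.8% of all genes), and the median difference was 0.28, against -0.033 for the list in control. Fkbp11, a secretory-pathway prolyl isomerase, read 188 at 4 h, 659 at 8 h, and 1057 and 1371 at 12 h, against 169 to 265 in control. Its relative Fkbp2 read 811 at 4 h, 1075 at 8 h, and 1667 and 1612 at 12 h, against 777 to 838. Neither isomerase was clear of control at 4 h, and both 12 h arrays exceeded the 8 h array. The differences were 0.87 (95% interval 0.45 to 1.28, limma adjusted p = 0.115) and 0.61 (95% interval 0.32 to 0.89, limma adjusted p = 0.109).

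Genes of 3 disulfide isomerases, which form and reshuffle bonds in secreted proteins, were higher on both 12 h arrays as well. Pdia6 read 1519.8 at 4 h, 3060.1 at 8 h, and 4420.1 and 4658 at 12 h, against 761 to 936 in control. Pdia4 read 669 at 4 h, 2186 at 8 h, and 2980.4 and 3192 at 12 h, against 279.7 to 438. Pdia5 read 169 at 4 h, 443 at 8 h, and 688 and 766 at 12 h, against 133 to 192. All 3 rose over control at 8 h and at 12 h in limma, with log2 differences from control of 1.81, 2.36 and 1.57 at 8 h and 2.57, 3.45 and 1.90 at 12 h (adjusted p at most 0.000668). The step from 8 h to 12 h, which shares arrays with those comparisons, was 0.57 (95% interval 0.27 to 0.87, limma adjusted p = 0.122) for Pdia6, 0.50 (95% interval 0.20 to 0.80, limma adjusted p = 0.147) for Pdia4 and 0.71 (95% interval 0.33 to 1.08, limma adjusted p = 0.122) for Pdia5. The control step was -0.19 (95% interval -0.49 to 0.11) for Pdia6, -0.60 (95% interval -0.90 to -0.30) for Pdia4 and 0.38 (95% interval 0.00556 to 0.75) for Pdia5. The difference between the time changes was 0.76 (95% interval 0.34 to 1.19, limma adjusted p = 0.24), 1.09 (95% interval 0.67 to 1.52, limma adjusted p = 0.234) and 0.33 (95% interval -0.20 to 0.86, limma adjusted p = 0.6). A second probe set of Pdia6 gave -0.11, so the probe sets of that gene disagree. The BiP nucleotide exchange factor Hyou1 read 986 at 8 h and 1525 and 1321 at 12 h, and the co-chaperone Dnajb11 read 2431 at 8 h and 3106 and 3139 at 12 h, again with both 12 h arrays above the 8 h array.

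Dnajb9 went the other way within the same list. It encodes ERdj4, the BiP co-chaperone that returns IRE1 to its resting form. It read 2328 at 4 h, 4292 at 8 h, and 2374 and 2993 at 12 h, against 882 to 1227 in control. Both 12 h arrays lay below the 8 h array, above the 4 h array and above every control. The difference was -0.69 (95% interval -1.08 to -0.29, limma adjusted p = 0.135), and the control step gave -0.34 (95% interval -0.73 to 0.053). The difference between the time changes was -0.35 (95% interval -0.90 to 0.21, limma adjusted p = 0.598), so a drop particular to tunicamycin was not shown.

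**Figure D2:**
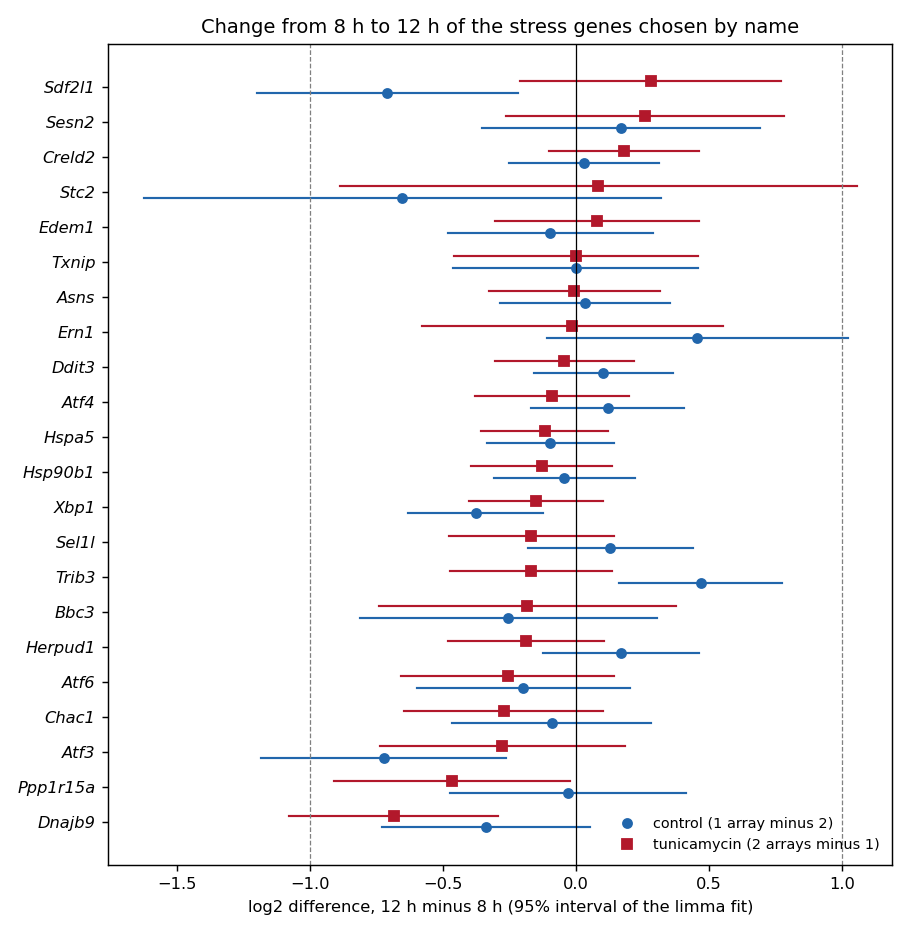
Log2 difference from 8 h to 12 h (horizontal axis) of 22 stress genes chosen by name (rows), with 95% intervals of the limma fit. Squares are tunicamycin, circles control, and dashed lines mark 2-fold. The tunicamycin intervals of 20 genes stay within the dashed lines, and those of Dnajb9 and Stc2 do not.

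These 22 genes are those of 26 taken by name, with earlier results known, that passed the filter on low values. All 22 differences lay between -0.69 and 0.28, with 5 above 0 and 17 below, and for 15 both 12 h arrays lay below the 8 h array (36.5% of all genes). This lean depends on the scaling. On the deposited scale, less the median of all genes, Hspa5, Hsp90b1, Atf4, Ddit3, Asns and Txnip lay above 0. Their values there ran from 0.00471 (Atf4) to 0.107 (Ddit3), and the 5 genes above 0 stayed above it. In limma 19 of the 22 genes were called higher than control at 8 h (background 9.42%) and 19 at 12 h (background 10.1%). Of the 4 other genes taken by name, Fgf21, a stress-induced hormone gene, was at or near 0 on every array. Slc7a11, the cystine transporter gene, read 24.1 at 8 h and 33.7 and 34.3 at 12 h and 1.72 to 10.7 in control. The death receptor gene Tnfrsf10b read 12.7 at 8 h and 19.1 and 11.2 at 12 h and 5.78 to 10.5 in control. These 3 lay below the filter, and Gdf15 was not analysed here. The stanniocalcin gene Stc2, a dim one with 37.7 at 8 h and 49.7 and 32.3 at 12 h, had the widest interval, 0.084 (95% interval -0.89 to 1.06), and a second probe set gave -0.38.

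Xbp1 and the sensor genes Atf6 and Ern1 had differences below 0 that were not called. Xbp1 read 4057 at 4 h, 3347 at 8 h, and 2922 and 3110.2 at 12 h, against 1779 to 2611 in control, and was highest at 4 h. Atf6 read 145 at 4 h, 382 at 8 h, and 316 and 322 at 12 h, against 87.4 to 115. Ern1, which encodes IRE1 alpha, read 153 at 4 h, 187 at 8 h, and 183 and 187 at 12 h, against 50.8 to 84.9. The step was -0.15 (95% interval -0.40 to 0.10, limma adjusted p = 0.548) for Xbp1, -0.26 (95% interval -0.66 to 0.14, limma adjusted p = 0.514) for Atf6 and -0.015 (95% interval -0.58 to 0.55, limma adjusted p = 0.985) for Ern1. The control step was -0.38 for Xbp1, -0.20 for Atf6 and 0.46 for Ern1. The difference between the time changes was 0.23, -0.058 and -0.47, none of them called. Against control Xbp1 stood at 0.53 at 8 h and 0.76 at 12 h on the log2 scale, so a fall back particular to tunicamycin was not shown. The probe sets count Xbp1 mRNA and do not tell its spliced from its unspliced form. Further probe sets of Xbp1 ran from -0.19 to 0.050, those of Atf6 from -0.59 to -0.36, and that of Ern1 gave 0.044. Scara3, a scavenger receptor whose mRNA is a substrate of IRE1-dependent decay, read 146 at 4 h, 62.9 at 8 h, and 33.2 and 37.9 at 12 h with tunicamycin and 279.9 to 363 in control. It fell against control at both times in limma, by 2.20 on the log2 scale at 8 h and by 3.25 at 12 h (adjusted p = 0.000319 and 5.04e-05). Both 12 h arrays lay below the 8 h array, with a difference of -0.78 (95% interval -1.22 to -0.33, limma adjusted p = 0.135). The 7 tested substrates of this decay had a median difference of -0.056, with 1 higher and 2 lower at an unadjusted p under 0.05 (7.14% and 8.57% of all genes).

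ER-associated degradation sends misfolded proteins back to the cytosol. All 25 of its tested genes were within 2-fold by the interval of the brightest probe set, against 71.1% of all genes. Their intervals were narrower, with a median reach of 0.346 against 0.455 over all genes. Herpud1, a membrane scaffold of the retrotranslocation complex, read 4304 at 4 h, 5807 at 8 h, and 4922 and 5268 at 12 h, against 374 to 452 in control. Its difference was -0.19 (95% interval -0.48 to 0.10, limma adjusted p = 0.511). Edem1, a mannosidase-like protein that hands over glycoproteins, read 895 at 4 h, 2135 at 8 h, and 2237 and 2273 at 12 h, against 328 to 425, with a difference of 0.079 (95% interval -0.31 to 0.46, limma adjusted p = 0.86) and 0.54 on a second probe set. The ubiquitin ligase gene Syvn1 (HRD1) read 1455 at 4 h, 2831 at 8 h, and 2186 and 1937 at 12 h, against 423 to 520.2. Its partner Sel1l read 957 at 4 h, 3463 at 8 h, and 3185 and 2978 at 12 h, against 343 to 396. In both ligase genes the 12 h arrays lay below the 8 h array, with -0.46 (95% interval -0.79 to -0.13, limma adjusted p = 0.199) and -0.17 (95% interval -0.48 to 0.14, limma adjusted p = 0.586), although 3 of 4 further probe sets of Sel1l pointed the other way, up to 1.48. Edem3 read 843 at 8 h and 586 and 683 at 12 h with 382 to 416 in control, a difference of -0.41 (95% interval -0.77 to -0.055). A second probe set of Edem3 gave -1.54, beyond 2-fold. Derl2, a channel protein, read 1763 at 8 h and 2133 and 2206 at 12 h with 824 to 931 in control, a difference of 0.30 (95% interval 0.024 to 0.57). At an unadjusted p under 0.05 this list of 25 had 2 members higher and 3 lower, shares near those over all genes (7.14% and 8.57%).

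The N-glycosylation list, the pathway that tunicamycin blocks at its first enzyme, leaned to higher values at 12 h. Of its 40 tested genes 0 were called, 8 were higher and 1 lower at an unadjusted p under 0.05 (7.14% and 8.57% of all genes), and 26 (65%) had both 12 h arrays above the 8 h array (37.8% of all genes). Of the oligosaccharyltransferase, the complex that moves the glycan onto proteins, Rpn1, Ddost, Dad1 and Ostc were among the higher genes, while the catalytic subunit gene Stt3a had a difference of 0.091 (95% interval -0.19 to 0.37) and Rpn2 one of 0.17 (95% interval -0.15 to 0.50). Rpn1 read 2794 at 4 h, 4057 at 8 h, and 5323 and 5823 at 12 h, against 1480.3 to 1849 in control. Ddost read 700.2 at 4 h, 1113 at 8 h, and 1719 and 1603 at 12 h, against 704 to 799.8. Ostc read 1047 at 4 h, 1877 at 8 h, and 2464 and 2633 at 12 h, against 944 to 1142. Ddost and Ostc were near control at 4 h, and in all 3 genes both 12 h arrays exceeded the 8 h array. Their differences were 0.46 (95% interval 0.19 to 0.73, limma adjusted p = 0.142), 0.57 (95% interval 0.28 to 0.87, limma adjusted p = 0.12) and 0.44 (95% interval 0.15 to 0.73, limma adjusted p = 0.167). A second probe set of Ostc gave -0.26. Gfpt1, the first enzyme of the hexosamine pathway that supplies the glycan donor and a known XBP1 target, was the lower member. It read 1224 at 4 h, 2623 at 8 h, and 1905 and 1797 at 12 h, against 742 to 904, with a difference of -0.50 (95% interval -0.82 to -0.18, limma adjusted p = 0.155), while a second probe set gave 0.22.

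Genes of ER entry and of ER-Golgi transport made up the largest list, and 49 of its 50 tested members were within 2-fold (71.1% of all genes). Their intervals were narrower, with a median reach of 0.315 against 0.455 over all genes. At an unadjusted p under 0.05, 13 were higher and 3 lower (7.14% and 8.57% of all genes), and 30 of 50 (60%) had both 12 h arrays above the 8 h array (37.8% of all genes). Kdelr3, a receptor that returns escaped ER proteins from the Golgi, read 241 at 4 h, 439 at 8 h, and 1033 and 1031 at 12 h with tunicamycin and 249.6 at 4 h, 293 and 263 at 8 h, and 353 at 12 h in control. Both 12 h arrays lay at over 2 times the 8 h value, and the 4 h array lay just below the controls. Its difference was 1.23 (95% interval 0.89 to 1.57, limma adjusted p = 0.0603), the smallest adjusted p among the stress genes and short of the threshold. The control step was 0.34 (95% interval 0.00294 to 0.69), and the difference between the time changes was 0.88 (95% interval 0.40 to 1.37, limma adjusted p = 0.24).

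Other members of that list higher at an unadjusted p under 0.05 included genes of the translocon, of signal peptide removal and of the COPI coat, which carries proteins from the Golgi back to the ER. Sec61b, a subunit of the protein channel, read 2262 at 8 h and 3368 and 3288 at 12 h, against 1293 to 1611 in control. The signal peptidase subunits read 1712 at 8 h and 2001 and 2462 at 12 h for Spcs2 and 1288 at 8 h and 1723 and 1757 at 12 h for Spcs3. The cargo receptor gene Surf4 read 1363 at 8 h and 1840.2 and 1929 at 12 h, against 694 to 757. In all 4 genes both 12 h arrays exceeded the 8 h array, with differences of 0.56, 0.37, 0.43 and 0.47 and limma adjusted p of 0.131, 0.285, 0.241 and 0.153. The COPI subunit genes had differences of 0.33 for Copa, 0.33 for Copg1 and 0.29 for Cope, and a second probe set of Copa gave -0.66. Of 4 further probe sets of Surf4 1 pointed down, at -0.080. The channel partner gene Sec62, whose protein also serves ER turnover during recovery from stress, read 961 at 4 h, 1358 at 8 h, and 965 and 919.7 at 12 h, against 889 to 1046 in control. Only its 8 h array stood above the controls, and the difference was -0.53 (95% interval -0.82 to -0.24, limma adjusted p = 0.131).

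Amino acid supply genes divided, with 14 of 26 tested differences above 0 and 12 below. Both 12 h arrays lay above the 8 h array for 12 (46.2%, background 37.8%) and below it for 10 (38.5%, background 36.5%). Asns, the asparagine synthetase gene and an ATF4 target, read 3139 at 4 h, 3762 at 8 h, and 3794 and 3695 at 12 h, against 1594 to 2183 in control, with a difference of -0.00694 (95% interval -0.33 to 0.31, limma adjusted p = 0.988). Aldh1l2, a mitochondrial folate enzyme, read 337 at 4 h, 694 at 8 h, and 1363 and 1309.7 at 12 h, against 186 to 285. Got1, the cytosolic aspartate aminotransferase, read 699 at 4 h, 2024 at 8 h, and 2639 and 2739 at 12 h, against 528 to 596. Both 12 h arrays exceeded the 8 h array for Aldh1l2 and Got1, with differences of 0.94 (95% interval 0.57 to 1.31, limma adjusted p = 0.083) and 0.41 (95% interval 0.12 to 0.70, limma adjusted p = 0.195). The serine pathway genes followed, with 894 at 8 h and 1094 and 1132 at 12 h for Shmt2 and 2796 at 8 h and 3351 and 3347 at 12 h for Phgdh. Glul, the glutamine synthetase, read 2005 at 4 h, 1022 at 8 h, and 618 and 607 at 12 h, against 1605 to 2339 in control, and was lower on both 12 h arrays with -0.74 (95% interval -1.04 to -0.43, limma adjusted p = 0.083) and -0.23 on a second probe set. In this list 0 genes were called, with 4 higher and 1 lower at an unadjusted p under 0.05 (7.14% and 8.57% of all genes), and 5 had intervals that reached beyond 2-fold. All 19 cytosolic tRNA synthetase genes were within 2-fold by their interval (71.1% of all genes), with a median reach of 0.350 against 0.455 over all genes. Their median difference was 0.00426, and the arginyl enzyme gene Rars was the lower member, 1362 at 8 h and 832 and 1064 at 12 h.

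**Figure D3:**
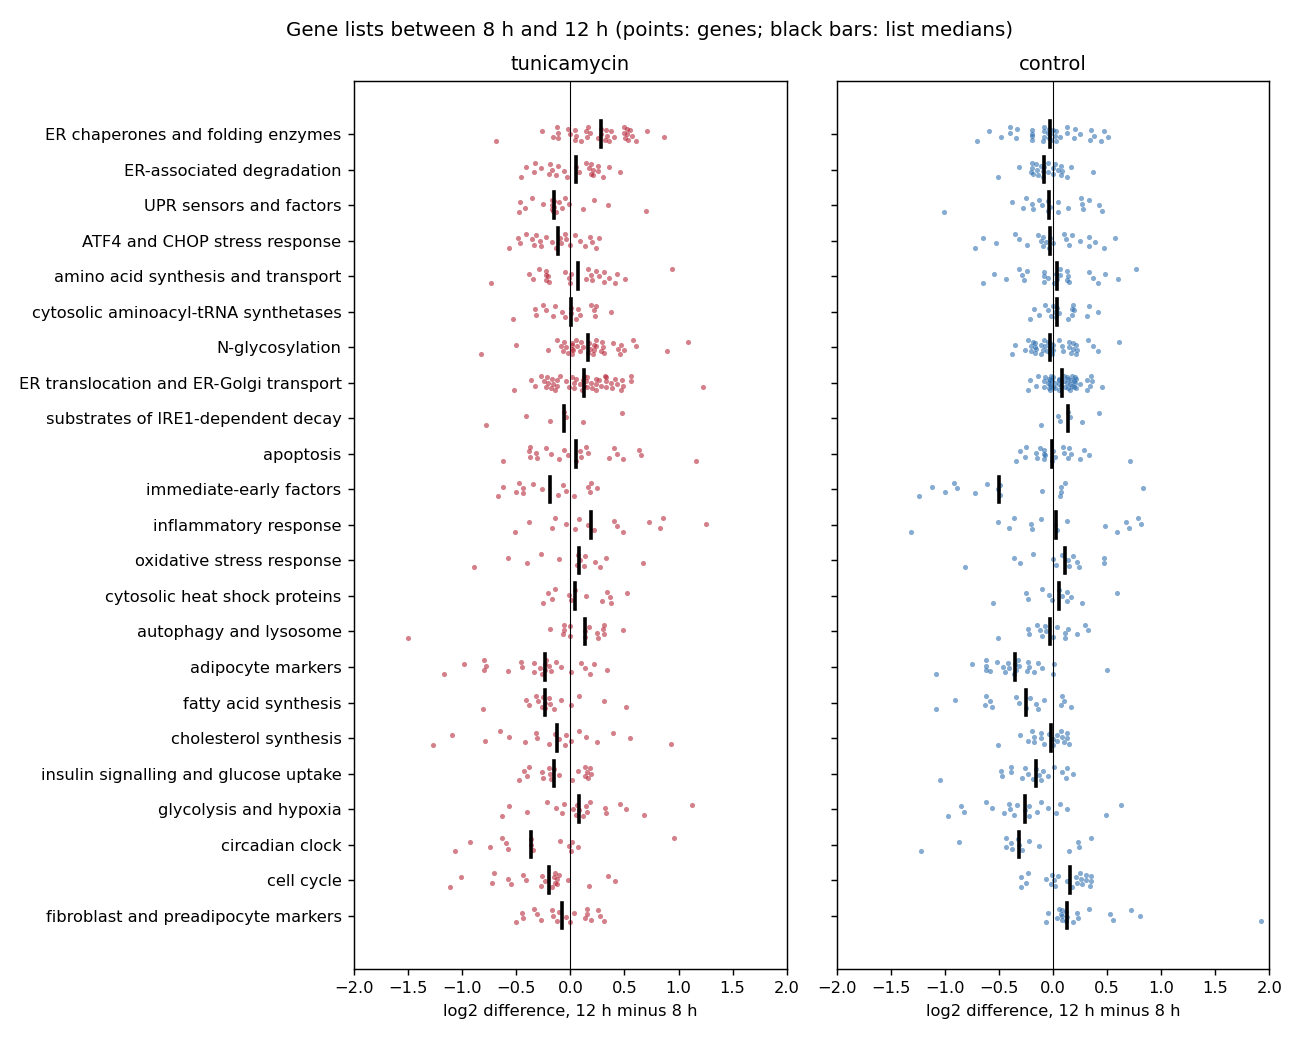
Log2 difference from 8 h to 12 h (horizontal axes) of every tested gene in 23 lists (rows), with tunicamycin on the left and control on the right. Points are genes and black bars are list medians. With tunicamycin the ER chaperone list has a median of 0.28, while the adipocyte, cell cycle and circadian lists have medians of -0.24, -0.20 and -0.37.

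The 4 genes that passed the test had separate courses. Slc6a6, which imports taurine, read 728 at 4 h, 236 at 8 h, and 795 and 612 at 12 h with tunicamycin and 808 at 4 h, 971 and 1085 at 8 h, and 931 at 12 h in control. The lone 8 h tunicamycin array was the low one, and both 12 h arrays lay between it and the controls of 8 h and 12 h. It rose by 1.55 on the log2 scale (SE 0.18, adjusted p = 0.0474 in limma), 2.93-fold, and a second probe set gave 0.73. This rise followed a level below control at 8 h, -2.11 (95% interval -2.51 to -1.70, limma adjusted p = 0.000261), a value that shares the lone array.

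Steap4, a metalloreductase of fat cells linked to inflammation and nutrient state, read 683 at 4 h, 283 at 8 h, and 90.2 and 72.6 at 12 h with tunicamycin and 729 at 4 h, 770 and 722 at 8 h, and 548 at 12 h in control. Both 12 h arrays lay below every other array, and the 12 h control was the lowest control. The gene fell by 1.77 on the log2 scale (SE 0.17, adjusted p = 0.0356 in limma), and a second probe set also pointed down. The control step was -0.44 (95% interval -0.84 to -0.045).

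Ghr, the growth hormone receptor, read 4620.2 at 4 h, 3469 at 8 h, and 1646 and 1642 at 12 h with tunicamycin and 4269 at 4 h, 4157 and 3818 at 8 h, and 3457 at 12 h in control. Mbnl1, a regulator of alternative splicing, read 3351 at 4 h, 3388 at 8 h, and 1666 and 1649.6 at 12 h with tunicamycin and 2922 at 4 h, 2639 and 2767 at 8 h, and 2262 at 12 h in control. For both genes the 12 h tunicamycin arrays agreed closely and lay below every other array. Ghr fell by 1.08 (SE 0.11) and Mbnl1 by 1.03 (SE 0.11) on the log2 scale, each with an adjusted p of 0.0356 in limma. Of 2 further probe sets of Ghr 1 pointed the other way, from -0.22 to 0.042, while Mbnl1 had no further probe set above the filter, and averaging it over every probe set, dim ones included, gave -0.24 and no call. All 4 calls were lost when either 8 h control or the first 12 h tunicamycin replicate was left out, and Ghr and Mbnl1 were also lost without the second 12 h replicate. The authors' deposited table gives log10 ratios of tunicamycin over control of -0.486 at 8 h and -0.151 at 12 h for Slc6a6. In the authors' deposited table Steap4 stands at -0.442 at 8 h and -1.09 at 12 h, Ghr at -0.0594 at 8 h and -0.322 at 12 h and Mbnl1 at 0.0847 at 8 h and -0.0727 at 12 h.

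The remaining genes with large fitted differences were dim and uncalled. Smim27, Kcnn4 and Med18 were at 0 on the 8 h tunicamycin array and read 34.6 and 32.9, 25.6 and 21.3 and 12.8 and 36.7 at 12 h, so no fold is given. Kiss1r, Wnt8b, Pnmal2 and Myo18a read 3.29, 3.15, 3.01 and 7.27 at 8 h. Their controls reached 36.8, 29.7, 54.0 and 43.8 and lay above the 8 h array in all but the 4 h control of Myo18a. Sytl2, a vesicle-docking gene, read 46.5 at 8 h and 4.33 and 5.33 at 12 h, and Mocos read 69.6 at 8 h and 25.7 and 1.17 at 12 h. Slit1 and Casz1 were at 0 on the first 12 h array, from 39.8 and 75.5 at 8 h, and read 4.42 and 33.6 on the second. Apol6 read 26.5 at 8 h and 0.144 and 1.70 at 12 h with tunicamycin and 69.0 and 54.1 at 8 h and 1.36 at 12 h in control. The control step of Apol6 was -3.89, against -2.96 with tunicamycin, and neither was called. The 12 tunicamycin differences of these genes had limma adjusted p of 0.0659 to 0.278.

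**Figure D4:**
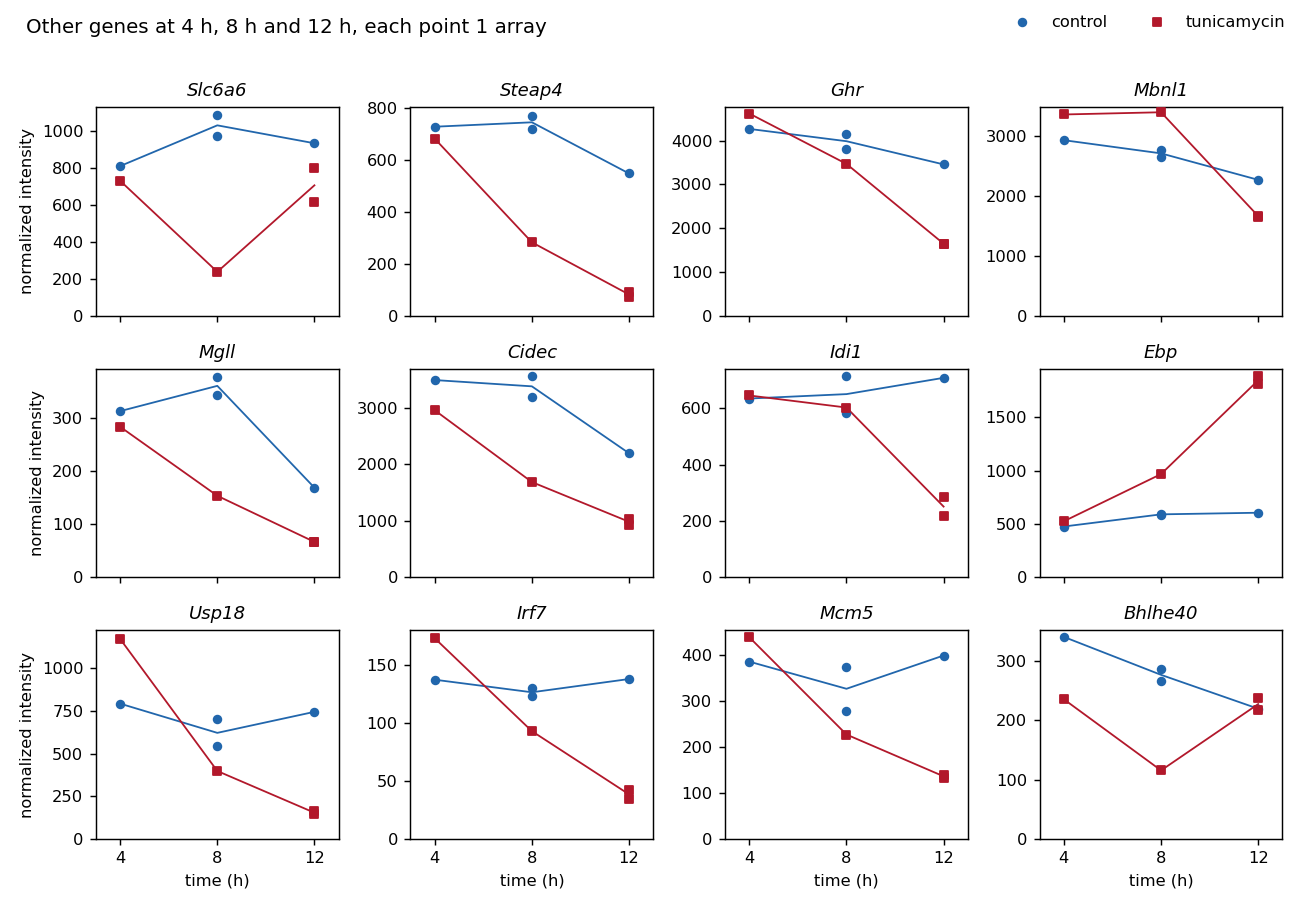
Normalized intensity (vertical axes, from 0, each gene on its own scale) of 12 other genes at 4 h, 8 h and 12 h (horizontal axes). Points are single arrays, squares tunicamycin and circles control, and lines join the means of each time. Slc6a6 and Bhlhe40 are lowest on the 8 h tunicamycin array, while Steap4, Ghr, Mbnl1, Usp18 and Irf7 are lowest on the 12 h tunicamycin arrays.

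Several regulators of cell death and inflammation were low on the 8 h tunicamycin array and higher on both 12 h arrays. Bmf, a pro-apoptotic BH3 protein gene, read 107 at 4 h, 53.2 at 8 h, and 137 and 110.5 at 12 h with tunicamycin, against 167 to 246 in control. Bad, another member of that family, read 199.8 at 4 h, 169 at 8 h, and 263 and 272 at 12 h, against 260.1 to 316. Casp12, the ER-resident caspase of the mouse, read 106 at 4 h, 54.2 at 8 h, and 81.3 and 90.5 at 12 h, against 133 to 169. The 8 h array was the lowest of all 8 in each gene. The differences were 1.17 (95% interval 0.57 to 1.76, limma adjusted p = 0.122), 0.65 (95% interval 0.27 to 1.03, limma adjusted p = 0.137) and 0.63 (95% interval 0.12 to 1.15, limma adjusted p = 0.239), and a second probe set of Casp12 gave -0.74. Over the processing settings, the deposited scaling aside, the Bmf difference ran from 0.21 to 1.31. Bbc3 (PUMA), a CHOP target, read 144 at 4 h, 187 at 8 h, and 155 and 174 at 12 h, against 116 to 169.9, and did not share this course. Of 23 tested apoptosis genes 0 were called, with 5 higher and 2 lower at an unadjusted p under 0.05 (7.14% and 8.57% of all genes).

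Nfkbia and Tnfaip3, inhibitors of NF-kappaB signalling, and Irf1 were also lowest on that array. Nfkbia (IkappaB alpha) read 1567 at 4 h, 798 at 8 h, and 1541 and 1131 at 12 h, against 1101 to 1319 in control. Tnfaip3 (A20) read 111 at 4 h, 64.6 at 8 h, and 113 and 121 at 12 h, against 70.0 to 102, so both 12 h arrays lay above every control. The interferon factor gene Irf1 read 357 at 4 h, 198 at 8 h, and 391 and 334 at 12 h, against 295 to 325, again above every control at 12 h. All 3 were lowest on the 8 h tunicamycin array, and both 12 h arrays were higher, with 0.72 (95% interval 0.31 to 1.14, limma adjusted p = 0.135), 0.83 (95% interval 0.34 to 1.32, limma adjusted p = 0.142) and 0.86 (95% interval 0.48 to 1.23, limma adjusted p = 0.094). Bhlhe40, a stress and clock repressor gene, read 236 at 4 h, 115 at 8 h, and 218 and 237 at 12 h, against 219.7 to 341, with 0.96 (95% interval 0.58 to 1.34, limma adjusted p = 0.083). Because each of these courses turns on 1 array, a dip at 8 h and a deviation of that array cannot be told apart. The acute-phase gene Hp, which fat cells secrete, read 382 at 8 h and 297 and 289.8 at 12 h with tunicamycin and 727 and 876 at 8 h and 318 at 12 h in control. Of 16 tested inflammatory genes 0 were called, with 4 higher and 2 lower at an unadjusted p under 0.05 (7.14% and 8.57% of all genes).

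For 19 of 25 adipocyte markers (76%) both 12 h tunicamycin arrays lay below the 8 h array, against 36.5% of all genes. Most adipocyte markers (19 of 25) had differences below 0 with tunicamycin, and the list median was below 0 in control as well. Of 25 tested markers 0 were called in either comparison. At an unadjusted p under 0.05, 8 were lower with tunicamycin and 13 in control, where the backgrounds were 8.57% and 5.65%. The medians were -0.24 and -0.35. Mgll, the monoglyceride lipase, read 284 at 4 h, 154 at 8 h, and 67.1 and 66.0 at 12 h with tunicamycin and 313 at 4 h, 344 and 378 at 8 h, and 169 at 12 h in control. Cidec, a lipid droplet protein gene, read 2954 at 4 h, 1684 at 8 h, and 929.6 and 1033 at 12 h with tunicamycin and 3489 at 4 h, 3196 and 3559 at 8 h, and 2194 at 12 h in control. In both genes the 12 h control was also the lowest control. The tunicamycin step was -1.17 (95% interval -1.56 to -0.78, limma adjusted p = 0.0763) and -0.78 (95% interval -1.07 to -0.49, limma adjusted p = 0.0785), the control step -1.08 (95% interval -1.47 to -0.69) and -0.62 (95% interval -0.91 to -0.33), and the difference between the steps -0.091 (95% interval -0.64 to 0.46) and -0.16 (95% interval -0.57 to 0.25).

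The lipase gene Pnpla2 and the lipogenic gene Fasn followed that order. Pnpla2, the triglyceride lipase ATGL, read 2200 at 8 h and 1622 and 1344 at 12 h with tunicamycin and 2912 and 3403 at 8 h and 2050.3 at 12 h in control. Fasn, the fatty acid synthase, read 2399 at 4 h, 1138 at 8 h, and 699.9 and 600.1 at 12 h with tunicamycin and 2809 and 2719.7 at 8 h and 1864 at 12 h in control. The tunicamycin step was -0.57 (95% interval -0.92 to -0.23) and -0.81 (95% interval -1.11 to -0.51), and the difference from the control step 0.043 (95% interval -0.45 to 0.53) and -0.24 (95% interval -0.67 to 0.19). Fabp4, the fatty acid carrier of fat cells, was at the top value of quantile normalization, 10780, on all controls and at 8 h, and read 8255 and 9584 at 12 h. The hypoxia and mitophagy gene Bnip3 read 1380 at 8 h and 1031 and 1059 at 12 h with tunicamycin and 2133 and 2037 at 8 h and 1154 at 12 h in control, a difference of -0.40 with tunicamycin and -0.85 in control. Of 17 tested fatty acid synthesis genes, 3 were lower and 1 higher with tunicamycin at an unadjusted p under 0.05 (8.57% and 7.14% of all genes). In control 8 were lower and 0 higher (5.65% and 4.8% of all genes). The higher one with tunicamycin was Me1, the malic enzyme that supplies NADPH, which read 960 at 8 h and 1224 and 1532 at 12 h, a difference of 0.51 (95% interval 0.16 to 0.86), with 0.16 on a second probe set.

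Cholesterol synthesis genes divided. Idi1, the isopentenyl diphosphate isomerase, read 646 at 4 h, 603 at 8 h, and 218 and 284 at 12 h with tunicamycin and 635 at 4 h, 585 and 716 at 8 h, and 709 at 12 h in control. Stard4, a sterol carrier gene, read 240.3 at 4 h, 313 at 8 h, and 153 and 137 at 12 h with tunicamycin and 230.1 at 4 h, 307 and 363 at 8 h, and 315 at 12 h in control. Ebp, a sterol isomerase of the ER membrane, read 525 at 4 h, 967 at 8 h, and 1807 and 1885 at 12 h with tunicamycin and 475 at 4 h, 584 and 595 at 8 h, and 604 at 12 h in control. Idi1 and Stard4 were in or near the control range at 8 h and below every control at 12 h, while Ebp exceeded every control at both times. The differences were -1.27 (95% interval -1.72 to -0.82, limma adjusted p = 0.0785), -1.10 (95% interval -1.50 to -0.69, limma adjusted p = 0.0785) and 0.93 (95% interval 0.64 to 1.22, limma adjusted p = 0.0659). The difference from the control step was -1.40 (95% interval -2.04 to -0.76, limma adjusted p = 0.234) for Idi1 and 0.89 (95% interval 0.48 to 1.31, limma adjusted p = 0.234) for Ebp. Insig1, the ER anchor that retains SREBP, read 1029.6 at 4 h, 626 at 8 h, and 484 and 367 at 12 h with 841 to 979.7 in control, a difference of -0.57 (95% interval -0.97 to -0.16). Of 20 tested genes 0 were called, with 2 higher and 6 lower at an unadjusted p under 0.05 (7.14% and 8.57% of all genes). In control 0 and 0 were (4.8% and 5.65% of all genes).

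**Figure D5:**
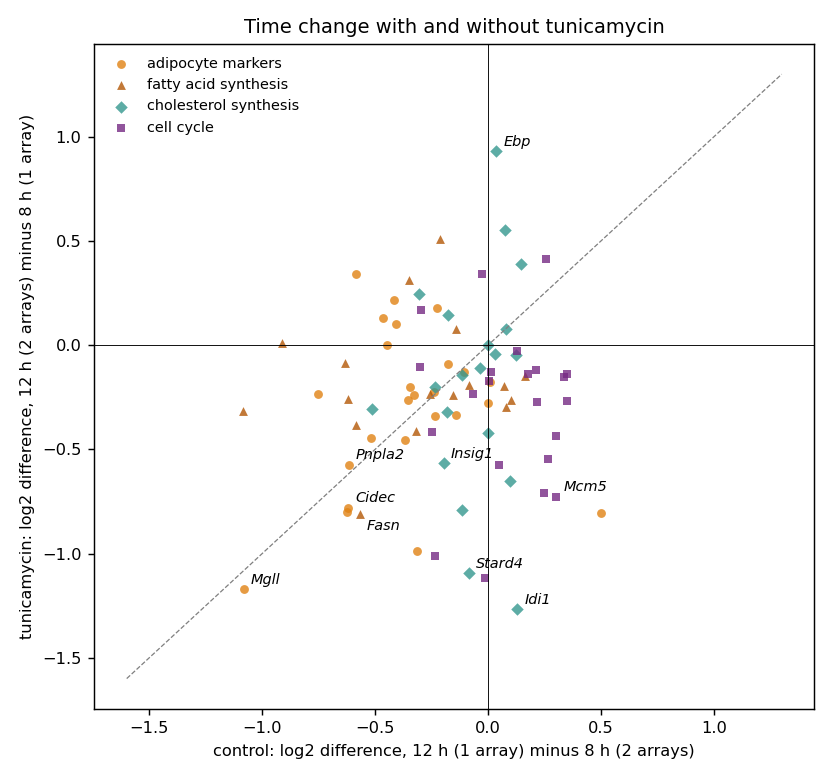
Log2 difference from 8 h to 12 h in control (horizontal axis) and with tunicamycin (vertical axis) of the tested adipocyte, fatty acid synthesis, cholesterol synthesis and cell cycle genes. Each point is a gene, and the dashed line marks equal differences. Mgll lies near the line at -1.08 and -1.17, while Idi1 and Stard4 lie far below it and Ebp above it.

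Most cell cycle genes (19 of 22) had differences below 0 with tunicamycin. For 15 of them (68.2%) both 12 h arrays lay below the 8 h array, against 36.5% of all genes. Of the 22 tested 0 were called, with 8 lower and 2 higher at an unadjusted p under 0.05 (8.57% and 7.14% of all genes). In control 0 and 0 were (5.65% and 4.8% of all genes), and the medians were -0.20 and 0.15. Mcm5, a helicase subunit that licenses replication origins, read 438 at 4 h, 227 at 8 h, and 139 and 133 at 12 h, against 278 to 398 in control. Mcm6, of the same ring, read 606 at 4 h, 339 at 8 h, and 229 and 186 at 12 h, against 478 to 655. Mki67, the proliferation antigen, read 174 at 4 h, 122 at 8 h, and 51.4 and 67.9 at 12 h, against 99.7 to 137. All 3 were lowest on the 12 h tunicamycin arrays, with -0.73 (95% interval -1.18 to -0.27, limma adjusted p = 0.153), -0.71 (95% interval -1.18 to -0.24, limma adjusted p = 0.174) and -1.01 (95% interval -1.61 to -0.41, limma adjusted p = 0.142). The difference from the control step was -1.03 (95% interval -1.68 to -0.38, limma adjusted p = 0.265) for Mcm5. Other members of that ring had smaller differences on their brightest probe sets, -0.12 for Mcm2, -0.27 for Mcm3 and -0.13 for Mcm4, and did not pass even an unadjusted p under 0.05. Pcna, the replication clamp gene, was one of the 2 higher genes, with 1229 at 8 h and 1599 and 1676 at 12 h and 1661 to 2217 in control, a difference of 0.41 (95% interval 0.073 to 0.75). Of the fibroblast markers, the collagen gene Col1a1 read 3578 at 8 h and 2602 and 2452 at 12 h and the matrix gene Postn 5183 at 8 h and 3706 and 3964 at 12 h. Both were lower on both 12 h arrays, while 8 of 20 markers had differences above 0. The fibronectin gene Fn1 had 0.28 and -0.91 on a second probe set. The preadipocyte gene Dlk1 read 2097 at 8 h and 1844 and 1504 at 12 h with tunicamycin and 2145 and 2261 at 8 h and 3618 at 12 h in control. Of 20 tested fibroblast and preadipocyte markers 0 were called, with 4 lower and 0 higher at an unadjusted p under 0.05 (backgrounds 8.57% and 7.14%), and 6 higher and 0 lower in control (backgrounds 4.8% and 5.65%).

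The remaining lists held 0 called genes in limma and are given by their counts at an unadjusted p under 0.05. At that threshold 7.14% of all genes were higher and 8.57% lower. Immediate-early factors had 0 higher and 2 lower of 16, with a median of -0.19 and of -0.50 in control. Circadian clock genes had 1 higher and 4 lower of 15, with medians of -0.37 and -0.31. Glycolysis and hypoxia genes had 3 higher and 3 lower of 21, with medians of 0.080 and -0.26. In control 1 of them was higher and 10 were lower (4.8% and 5.65% of all genes). The difference between the time changes was higher for 11 and lower for 0 of them (5.95% and 6.41% of all genes), with 0 called. Oxidative stress genes had 2 higher and 2 lower of 14, cytosolic heat shock genes 3 higher and 0 lower of 13, autophagy and lysosome genes 3 higher and 1 lower of 16, insulin signalling genes 0 higher and 0 lower of 19, and macrophage markers 0 higher and 0 lower of 3. Of the genes taken by name, Sesn2, an mTORC1 inhibitor, had the highest difference of the ATF4 and CHOP list. It read 196 at 8 h and 275 and 200.2 at 12 h, a difference of 0.26 (95% interval -0.26 to 0.78). Txnip, a thioredoxin inhibitor, read 1769 at 8 h and 1460.5 and 2143 at 12 h, a difference of -0.000177 (95% interval -0.46 to 0.46), with the 12 h arrays on either side of the 8 h array. Further probe sets of these genes gave -1.25 for Sesn2 and 1.03 for Txnip.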

How the data were processed

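The labels' protocols give Trizol RNA, biotin labelling and Affymetrix arrays. The deposited series table holds 1 linear intensity per probe set and array, per the file headers, with no software or scaling named in the sources used here. The authors also deposited tables of a log10 ratio per time. Their direction was read as tunicamycin over control, because across genes they correlated with the effects computed here (r = 0.926 at 8 h and 0.915 at 12 h), and they entered no test. Between 19.2% and 20.9% of an array's values were not above 0, array medians ran from 9.56 to 22.0 intensity units, and 0 columns had no sample.

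Quantile normalization was run on linear values of all 8 arrays. Negative values became 0, and tests used log2(value + 2.956), with the 10th percentile of positive values as pseudocount. Differences on this scale understate changes of dim genes. Of 45101 probe sets, 34958 had 1 symbol in the platform annotation, 932 several and 9211 none, and 34754 symbols were updated through a RefSeq table (assembly GRCm38.p6). For each of 18194 genes the brightest probe set on average was kept. The 10916 at or above the 40th percentile of the mean, 15.3 units, were tested with limma 3.58.1 in R 4.3.3, with 1 mean per group in lmFit and the intensity trend of eBayes. The fit has 2 residual degrees of freedom, 1 from each replicated group (8 h control, 12 h tunicamycin), and 6.37 prior ones. P-values are two-sided with Benjamini-Hochberg adjustment over all tested genes, called under 0.05, and the number of arrays limits their precision. No 2 arrays held identical values (0 pairs). The script was tested on simulated data. Plots came from matplotlib 3.10.9 under Python 3.11.15.

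The members, the 24 gene lists, the 26 genes taken by name and the tests were chosen with earlier results of these data known. The naming rule took the largest called differences in each direction, up to 12, with both 12 h arrays on 1 side of the 8 h array and 1 group above 4 pseudocounts, filled to 8 with uncalled genes. It also took up to 4 called members of each list, which named no further gene, and the genes called in both the tunicamycin step and the difference of steps, of which there were 0. A further 74 genes in the text were chosen after their values were seen. Of 112 named genes 88 had a promoter in the RefSeq table, and 21 of the 61 with a further probe set above the filter had 1 pointing the other way. Alternatives were 3 scalings in all, pseudocount, filters, probe set rule, variance trend, arrays fitted and replicates left out. 2 were added after seeing the data, testing each probe set and an adjusted p under 0.1.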

Additional observations from a re-analysis of the deposited data

How the results depend on the processing

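The 1 higher and 3 lower calls of the tunicamycin step depended on the processing. Calls were 0 higher and 0 lower with the deposited scaling, the mean of all probe sets, no intensity trend, only the 3 tunicamycin arrays, or each probe set tested (the last chosen after seeing the data). With the deposited scaling the median difference of all genes was -0.54, so values there are read relative to it. Median centring gave 2 higher and 1 lower (66.7% higher against 25%), with a median of -0.12 over all genes. A pseudocount 4 times as large and the 6 arrays of 8 h and 12 h each gave 2 higher and 3 lower, the stricter filter 14 and 30, no filter 7 and 76, and an adjusted p under 0.1 (chosen after seeing the data) 27 and 54. Of the 83 calls without a filter, 82 lay below it and 67 had identical replicate values. Without a filter control had 143 calls and the difference of time changes 170, and control had 2 with the deposited scaling and 2 with each probe set tested, against 0. Leaving out 1 replicate gave 0 to 1 higher and 0 to 12 lower calls. Stress genes called numbered 1 with the larger pseudocount and with 6 arrays (Kdelr3), 2 with the stricter filter (Aldh1l2 and Kdelr3) and 3 at an adjusted p under 0.1. Stress genes within 2-fold numbered 213 to 218 without 1 replicate and 0 with the deposited scaling. Reversed log2 differences with the deposited scaling, before its median of all genes was taken off, were Creld2 -0.21, Sdf2l1 -0.21, Edem1 -0.38, Sesn2 -0.31, Stc2 -0.46, Hyou1 -0.022, Dnajb11 -0.13, Rpn1 -0.00840, Ostc -0.046, Spcs2 -0.11, Spcs3 -0.078, Surf4 -0.030, Got1 -0.080, Shmt2 -0.21, Phgdh -0.24, Derl2 -0.16, Dad1 -0.050, Stt3a -0.37, Rpn2 -0.32, Copa -0.16, Copg1 -0.15, Cope -0.18, Me1 -0.037, Pcna -0.11 and Fn1 -0.21. Less that median, each of these genes kept its sign of the main setting. Less that median, Hspa5 (0.056), Hsp90b1 (0.00947), Atf4 (0.00471), Ddit3 (0.107), Asns (0.086) and Txnip (0.044) lay above 0. In the main setting these genes lay below 0. With the mean of all probe sets the reversed differences were Hsp90b1 0.19, Sel1l 0.57, Ern1 0.45, Atf4 0.18, Ddit3 0.021, Sesn2 -0.49, Stc2 -0.23, Txnip 0.51, Casp12 -0.053, H13 -0.020, Stt3a -0.26, Copa -0.16, Mcm2 0.028, Mcm3 0.19 and Fn1 -0.32, and with median centring Stc2 -0.044. Over single replicates left out, Stc2 ran from -0.21 to 0.37, Asns from -0.027 to 0.011, Mcm2 from -0.32 to 0.085 and Txnip from -0.28 to 0.28. The cause was not tested. Intensities near the filter limit the dim genes. No paired analysis was possible because the tunicamycin groups of 8 h and 12 h share only replicate number 1.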

Other observations

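The interferon-inducible genes Usp18, Gbp3, Irf7 and Mx2 were in no list above and were chosen after their values were seen. Cxcl10 and the interferon factor gene Irf1 were in the inflammatory list and had differences above 0 (1.25 and 0.86). Usp18, which removes the ubiquitin-like modifier ISG15, read 1172 at 4 h, 398 at 8 h, and 162 and 144 at 12 h with tunicamycin and 793 at 4 h, 701 and 541 at 8 h, and 745 at 12 h in control. Gbp3, a guanylate-binding protein gene, read 582 at 4 h, 374 at 8 h, and 122 and 165 at 12 h with tunicamycin and 570.5 at 4 h, 563 and 494 at 8 h, and 553 at 12 h in control. Irf7, the factor that amplifies type I interferon, read 173 at 4 h, 92.7 at 8 h, and 42.1 and 34.5 at 12 h with tunicamycin and 137 at 4 h, 129.5 and 123 at 8 h, and 138 at 12 h in control, and Mx2, an antiviral GTPase gene, read 112 at 4 h, 59.5 at 8 h, and 15.6 and 15.2 at 12 h with tunicamycin and 122 at 4 h, 56.9 and 42.5 at 8 h, and 72.5 at 12 h in control. All 4 were lowest on the 12 h tunicamycin arrays, below every other array. The log2 differences were -1.36, -1.38, -1.22 and -1.77 with limma adjusted p of 0.0659, 0.0763, 0.083 and 0.083, and the differences from the control step were -1.64, -1.45, -1.34 and -2.30, none of them called. Against control at 12 h all 4 fell in limma, by 2.26, 1.94, 1.77 and 2.04 on the log2 scale (adjusted p at most 0.00273). The chemokine gene Cxcl10, also induced by interferon, had the opposite order, 122 at 4 h, 43.9 at 8 h, and 139 and 84.6 at 12 h, with 58.9 to 121 in control and a difference of 1.25 (95% interval 0.56 to 1.94, limma adjusted p = 0.131).

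Also chosen after their values were seen, H13, the signal peptide peptidase of the ER membrane, read 609.8 at 4 h, 977 at 8 h, and 1917 and 1728 at 12 h with tunicamycin and 490.3 to 528 in control, and Nans, which makes sialic acid for glycans, read 278 at 4 h, 537 at 8 h, and 947 and 908 at 12 h with 221 to 247 in control. Both 12 h arrays exceeded the 8 h array, with differences of 0.90 (95% interval 0.59 to 1.21, limma adjusted p = 0.0785) and 0.79 (95% interval 0.45 to 1.12, limma adjusted p = 0.083). Further probe sets of H13 ran from -0.59 to 0.13.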
